A study of Mus musculus with 69 samples.

Results

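The saline control hearts were 18 of the 69 arrays of a mouse study of cyanide exposure, and comprised every array titled as saline. Adult male CD-1 mice of 20 to 35 g, not anesthetized, received a subcutaneous injection of saline whose volume matched that of a potassium cyanide (KCN) dose of 8.0 mg/kg. Hearts were taken 1, 2, 4, 8 and 24 h after the injection, with 4, 3, 3, 4 and 4 arrays at these times, each titled as a separate biological replicate. No cyanide was given to these mice, so the series of times describes the injection itself, the handling around it and the hours that passed. An array from before the injection was not analysed here, and the earliest hearts, at 1 h, served as the reference. The labels give hours after injection but no clock hour, so time since handling and time of day cannot be told apart. Hearts of 16 mice that breathed air at 1, 2, 4 and 24 h (n = 4 at each time) gave a second, separately handled control course. The 19 KCN hearts (n = 4, 4, 3, 4 and 4) were set beside the saline hearts at 8 h, a time that the air course lacks.

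Handling and injection are stressors for a mouse. Stress releases catecholamines within seconds and corticosterone within minutes. Catecholamines act through cyclic AMP and CREB on immediate early genes such as Fos and Nr4a1, whose transcripts appear and decay quickly. Corticosterone binds the glucocorticoid receptor, which binds glucocorticoid response elements of genes such as Fkbp5, Tsc22d3 and Per1. The heart also carries its own circadian clock, in which BMAL1 (listed here as Arntl) with CLOCK or NPAS2 activates the Per, Cry and Nr1d genes and outputs such as Dbp through E-boxes, while the protein of Dbp acts through D-boxes on genes such as Per3.

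Whole-heart RNA was read on Affymetrix 3' arrays, and values are log2 levels of a probe set. The 18 saline arrays correlated with each other at Pearson r of 0.975 to 0.994 across probe sets, and no pair of arrays was identical. Mean levels of the 6 tested ventricular cardiomyocyte markers ranged from 12.81 to 12.93 over the arrays. The 18S ribosomal RNA control read 11.19 to 11.85 in the 3 hearts of 2 h against 12.82 to 13.19 in the other 15. The actin 3'/5' control difference (log2) is a sign of RNA and labelling quality. In saline hearts it averaged 0.84, 0.86 and 0.88 at 1, 4 and 24 h and 0.42 and 0.45 at 2 and 8 h. Air groups averaged 0.39 to 0.50 and KCN groups 0.43 to 0.59. The saline means of 1 h, the reference, and of 4 and 24 h lay above all of these. Of 12 exact two-sided permutation tests on such quality measures against 1 h, none passed after adjustment. The smallest p that these group sizes can give is 0.0286, which leaves little room to pass, so no conclusion is drawn. At that smallest p stood 18S at 2 h (-1.46), 18S at 24 h (0.14) and actin at 8 h (-0.39). Scgb1a1, a secretory protein of airway club cells, read 11.18 and 11.43 in 2 hearts of 8 h (replicates 1 and 2) and 9.51 in 1 heart of 24 h (replicate 3), and 2.54 to 3.22 in the other 15. Adipoq, the hormone of fat cells, averaged 7.09 to 7.47 over the 5 saline groups and 9.24 to 9.84 over the 5 KCN groups. The part of the 18S and Adipoq levels in single results was not tested.

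Saline hearts differed over time at 10266 of 26773 tested probe sets, or 38.3% (limma F test over the 5 times, adjusted p below 0.05). At 2, 4, 8 and 24 h, in that order, 4861 (18.2%), 921 (3.44%), 2393 (8.94%) and 2387 (8.92%) probe sets differed from 1 h. Lower calls made up 2273 (8.49%), 715 (2.67%), 1327 (4.96%) and 1412 (5.27%) of all tested at these times, and higher calls 2588 (9.67%), 206 (0.769%), 1066 (3.98%) and 975 (3.64%). At 4 h the split depended on the scaling, with 22.4% of the calls higher as deposited and 39.0% after quantile normalization (432 higher, 675 lower). Between 8 and 24 h, 3574 probe sets (13.3%) differed, 1808 higher (6.75%) and 1766 lower (6.6%). The 4 comparisons against 1 h share the same 4 arrays. Among the 10266 probe sets, the group mean was highest at 2 h for 3913, at 24 h for 2932, at 1 h for 1476, at 8 h for 1119 and at 4 h for 826. It was lowest at 24 h for 3090 and at 2 h for 3024. Without the 3 arrays of 2 h, which held the low 18S values, the test of saline hearts over time, on the other 4 groups, called 5995. Single arrays moved some of these counts by over 1.5 times. The count was 460 at 4 h without replicate 2 of 4 h, and at 8 h it was 1170, 1401 and 1407 without replicate 2 of 1 h, replicate 3 of 8 h and replicate 4 of 8 h. It was 1336 at 24 h without replicate 2 of 1 h, and 2213 between 8 and 24 h without replicate 1 of 24 h. With the actin ratio as a covariate, 1136 were called at 8 h against 1 h and 2219 between 8 and 24 h. Without the 3 arrays with Scgb1a1 these counts were 3111 and 2243. In whole-heart RNA, fewer cells of a type and less RNA per cell cannot be told apart.

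**Figure D1:**
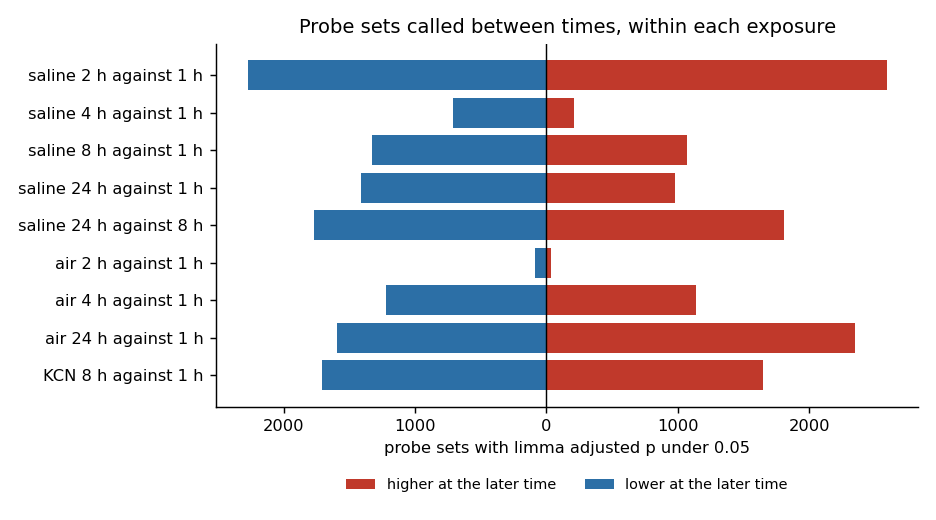
Number of probe sets called (limma, adjusted p below 0.05) as higher or lower at each time against 1 h, of 26773 tested. In saline hearts the 2 h group differed most from 1 h, with 2588 higher and 2273 lower, and the 4 h group least, with 206 and 715.

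Genes induced by glucocorticoids stood at or near their highest level in the first hearts and were lower a day later. Of 19 tested genes of this list, 17 differed over time, beside 38.3% of all probe sets. Those lower than at 1 h numbered 7, 11, 12 and 16 in the groups of 2, 4, 8 and 24 h. Of all probe sets, 8.49%, 2.67%, 4.96% and 5.27% were lower then. None of the 19 was higher in any of these groups. The median log2 change over the 19 was -0.27, -1.14, -0.85 and -1.16 at these times, while that over all tested probe sets was -0.0027, -0.03, -0.01 and -0.0024. The group mean was highest at 1 h for 14 of the genes and at 2 h for the other 5, and lowest at 24 h for 11 and at 4 h for 6. Without replicate 2 of 4 h, 7 of the 19 were lower at 4 h.

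Fkbp5, an immunophilin that binds the receptor's chaperone complex and is a standard readout of its activity, read 7.46, 7.99, 7.66 and 8.52 at 1 h, 8.24, 8.25 and 8.20 at 2 h, 7.68, 6.45 and 6.58 at 4 h, 7.19, 7.44, 6.96 and 6.30 at 8 h, and 5.14, 5.36, 5.77 and 5.70 at 24 h. The 4 hearts of 24 h lay below all other saline hearts. The fall from 1 to 24 h was -2.42 ± 0.29 (SE; adjusted p = 2.9e-08). Zbtb16, a zinc-finger transcription factor induced by corticosteroids, read 7.48, 8.65, 8.07 and 8.54 at 1 h, 8.37, 8.20 and 8.37 at 2 h, 6.81, 7.06 and 7.04 at 4 h, 6.58, 7.07, 7.30 and 6.27 at 8 h, and 5.24, 6.17, 5.90 and 6.08 at 24 h. As with Fkbp5, the hearts of 1 and 2 h overlapped and those of 24 h were lowest, with a change of -2.34 ± 0.31 from 1 to 24 h (adjusted p = 5.1e-07). Over the same times the other tested probe set changed by -1.18 for Fkbp5 and by -2.04 for Zbtb16.

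Other members were already lower at 2 h. Ddit4, an inhibitor of the mTORC1 growth pathway, read 9.80, 10.23, 10.16 and 10.13 at 1 h, 8.41, 8.81 and 8.67 at 2 h, 8.27, 7.66 and 7.98 at 4 h, 8.56, 9.68, 8.85 and 8.19 at 8 h, and 8.34, 7.79, 7.47 and 7.64 at 24 h. All later hearts lay below those of 1 h. The change was -1.45 ± 0.29 at 2 h (adjusted p = 0.0002) and -2.27 ± 0.27 at 24 h (adjusted p = 2.9e-08). Fam107a, an actin-associated protein raised by stress, read 8.51, 9.11, 8.84 and 8.88 at 1 h, 7.46, 7.76 and 7.28 at 2 h, 7.03, 5.91 and 5.64 at 4 h, 6.89, 7.64, 7.37 and 6.43 at 8 h, and 5.15, 5.16, 4.92 and 5.36 at 24 h. Its fall of -3.69 ± 0.34 from 1 to 24 h (adjusted p = 1.7e-11) was the largest among named probe sets called lower at 24 h with groups that did not overlap. The 2 other tested probe sets of Fam107a had a median change of -1.98 there. The level at 24 h was also below that of 8 h (-1.94 ± 0.34, adjusted p = 6.3e-05).

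Cebpb, a transcription factor of acute stress and metabolism, was called lower from 4 h and not at 2 h. It read 10.46, 10.52, 10.73 and 10.73 at 1 h, 10.29, 10.51 and 10.22 at 2 h, 8.73, 9.05 and 8.64 at 4 h, 9.27, 9.32, 9.64 and 9.25 at 8 h, and 9.0, 8.29, 8.64 and 8.75 at 24 h. The change was -1.80 ± 0.19 at 4 h (adjusted p = 4.2e-10) and -1.94 ± 0.17 at 24 h (adjusted p = 1.2e-11), with no overlap between these groups and 1 h. Cdkn1a, the cell-cycle inhibitor p21, read 8.68, 10.12, 9.30 and 9.37 at 1 h, 8.09, 9.0 and 9.56 at 2 h, 8.72, 8.65 and 8.08 at 4 h, 7.01, 9.03, 7.07 and 7.90 at 8 h, and 6.33, 6.55, 6.90 and 7.01 at 24 h. Its hearts of 8 h were spread from 7.01 to 9.03, and its change at 24 h was -2.67 ± 0.32 (adjusted p = 3.5e-08). Tsc22d3 (GILZ, an anti-inflammatory mediator of the receptor) changed by -1.04 ± 0.18 at 4 h and -1.02 ± 0.17 at 24 h. Errfi1, a feedback inhibitor of the EGF receptor, changed by -1.38 ± 0.30 at 2 h and -1.16 ± 0.28 at 24 h. The metallothionein Mt1 had group means of 11.90 and 11.98 at 1 and 2 h and 11.03 at 24 h (-0.88 ± 0.12, adjusted p = 1.1e-06).

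**Figure D2:**
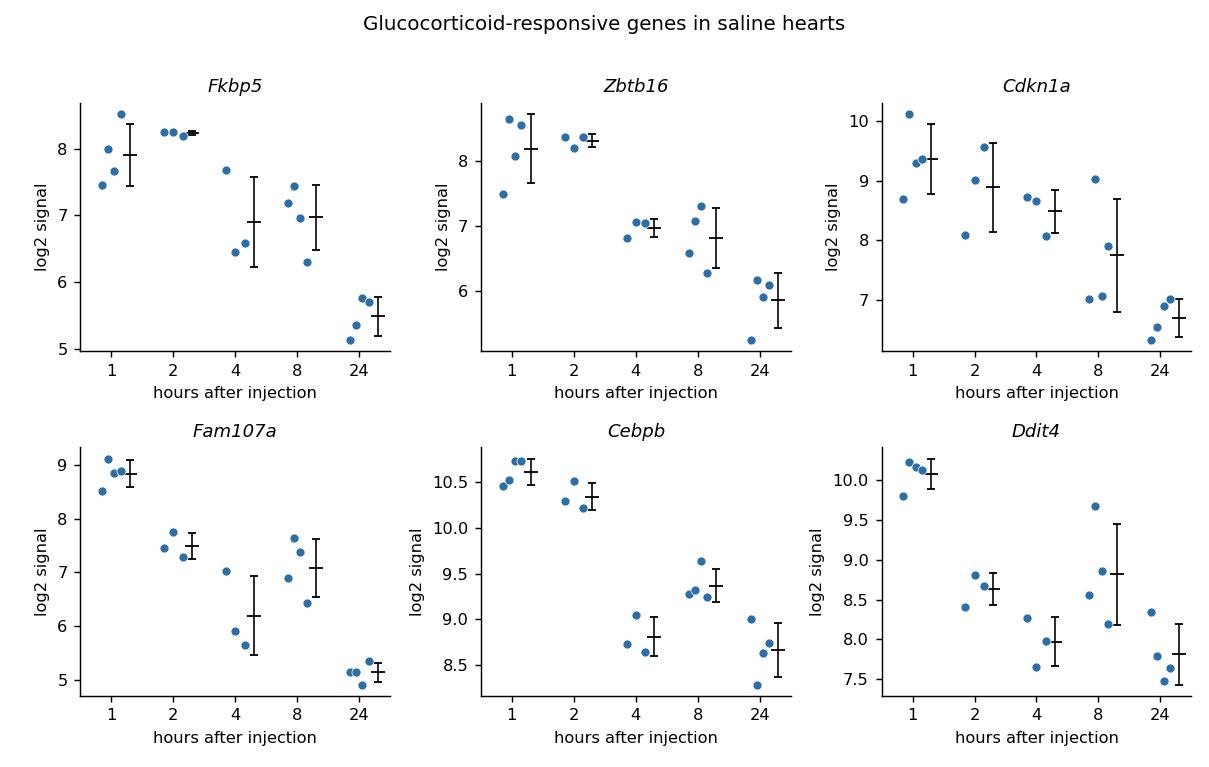
Log2 level of 6 glucocorticoid-response genes in each saline heart (points) by hours after injection, with the mean and SD of each group (bars). All 6 were lowest or near their lowest at 24 h; Fkbp5 and Zbtb16 were not called at 2 h, while Ddit4 and Fam107a were lower by 2 h.

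Sgk1, a kinase that regulates ion channels and a classical target of the receptor, read 9.28, 9.50, 9.66 and 9.0 at 1 h, 8.36, 8.44 and 8.61 at 2 h, 8.17, 7.89 and 8.27 at 4 h, 8.36, 9.47, 8.65 and 8.29 at 8 h, and 8.94, 8.37, 7.95 and 8.61 at 24 h. The change at 4 h was -1.25 ± 0.22 (adjusted p = 0.00018); 1 heart of 8 h, at 9.47, lay within the range of 1 h. Its promoter is shown because, of the 16 list members with a promoter in the RefSeq table, it alone held the full palindromic glucocorticoid response element (GRE, AGAACA and TGTTCT with any 3 bases between) in the 250 bases before a start site. The motif, searched on both strands, occurred in 3 of 32851 such windows (0.00913%). List members were counted by gene, over all their listed start sites, and this background by single window. It lay 189 bases before 1 of 6 start sites listed for Sgk1, at chr10:21993640-21993889 on the plus strand of GRCm38.p6, and is in capitals.
Sgk1: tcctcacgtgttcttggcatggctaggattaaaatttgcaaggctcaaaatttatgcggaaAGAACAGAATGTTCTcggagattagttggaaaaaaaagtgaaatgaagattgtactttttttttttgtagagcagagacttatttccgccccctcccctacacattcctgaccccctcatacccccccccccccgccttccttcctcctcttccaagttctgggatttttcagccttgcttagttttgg

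Genes outside the list were also highest in the first hearts. Slc10a6, a transporter of sulfated steroids, had group means of 7.14 at 1 h and 5.06 to 5.45 at all later times (-1.96 ± 0.30 at 2 h, adjusted p = 2.8e-06). Shld1, a subunit of the shieldin complex of DNA repair, went from 7.76 at 1 h to 6.63 at 8 h and 5.64 at 24 h (-2.12 ± 0.25, adjusted p = 2e-08). Adh1, an alcohol dehydrogenase, was 9.46 at 1 h and 7.49 at 24 h (-1.97 ± 0.26, adjusted p = 4.9e-07). Within the list, Klf15 is a transcription factor that links glucocorticoids and the clock to cardiac metabolism. It read 8.09 to 8.87 in the hearts of 1 h and 6.95 to 7.28 in those of 24 h (-1.32 ± 0.20, adjusted p = 4.6e-06). Some named genes were instead lowest at 1 h. Smim5, a small membrane protein, had group means of 6.52 at 1 h, 8.03 at 4 h and 8.11 at 8 h (1.59 ± 0.20 at 8 h, adjusted p = 2.3e-07). Bik, a pro-apoptotic BCL2 relative, was 3.95 at 1 h and 5.59 at 24 h (1.64 ± 0.24, adjusted p = 2.3e-06). Sox4, a transcription factor, was 8.80 at 1 h and 10.13 at 24 h (1.33 ± 0.21, adjusted p = 1.9e-05).

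Immediate early genes were also highest soon after the injection, and lowest at 4 h rather than at 24 h for many members. Of 28 tested, 13 differed over time, a share near the 38.3% of all probe sets. Those lower than at 1 h numbered 7, 11, 10 and 10 in the groups of 2, 4, 8 and 24 h, beside 8.49%, 2.67%, 4.96% and 5.27% of all, and 1 was higher at 2 h and 1 at 8 h. Median changes were -0.23, -0.57, -0.44 and -0.31 at these times. The group mean was highest at 1 h for 15 of the 28 and lowest at 4 h for 14. Without replicate 3 of 1 h, 6 were lower at 4 h.

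Nr4a1, an orphan nuclear receptor induced by catecholamines, read 8.83, 9.78, 9.76 and 9.37 at 1 h, 6.33, 7.89 and 7.80 at 2 h, 5.81, 4.75 and 5.51 at 4 h, 5.23, 7.01, 4.71 and 4.97 at 8 h, and 7.41, 5.19, 5.41 and 6.16 at 24 h. No later heart reached the range of 1 h. The change was -2.10 ± 0.46 at 2 h (adjusted p = 0.00068) and -4.08 ± 0.46 at 4 h (adjusted p = 3.9e-09). Fos, a subunit of the AP-1 transcription factor, read 6.83, 7.84, 8.96 and 8.36 at 1 h, 5.15, 5.55 and 7.33 at 2 h, 5.28, 4.72 and 4.01 at 4 h, 5.04, 6.64, 4.70 and 4.80 at 8 h, and 7.63, 4.90, 5.17 and 7.53 at 24 h. At 24 h, replicates 1 and 4 lay within the range of 1 h and the other two below it. Its change was -3.33 ± 0.65 at 4 h (adjusted p = 0.00069) and -2.71 ± 0.60 at 8 h (adjusted p = 0.0024), and the 24 h group did not pass.

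Maff, a small MAF transcription factor, and Nr4a3, a relative of Nr4a1, were called lower from 4 h and from 8 h, and not before. Maff read 6.42, 7.38, 7.39 and 7.12 at 1 h, 6.40, 6.59 and 6.38 at 2 h, 5.24, 6.05 and 5.0 at 4 h, 5.40, 4.98, 5.43 and 4.87 at 8 h, and 5.31, 5.06, 4.92 and 4.93 at 24 h, a change of -2.03 ± 0.26 at 24 h (adjusted p = 2.1e-07). Nr4a3 read 7.14, 7.10, 7.81 and 7.22 at 1 h, 5.90, 6.95 and 7.49 at 2 h, 5.74, 7.05 and 7.15 at 4 h, 3.76, 5.63, 4.65 and 4.89 at 8 h, and 5.25, 3.95, 3.97 and 4.10 at 24 h. Its hearts of 2 and 4 h overlapped those of 1 h, and its change at 24 h was -3.00 ± 0.45 (adjusted p = 6.1e-06); the other tested probe sets of Nr4a3 had a median change of 0.08 there. Csrnp1, a nuclear protein induced with AP-1, changed by -1.70 ± 0.29 at 4 h, and Fosl2, another AP-1 subunit, by -1.39 ± 0.23. Otud1, a deubiquitinase outside the list, changed by -2.20 ± 0.27 at 8 h. Sik1, a kinase that restrains CREB coactivators, had means of 6.0 at 1 h, 5.76 at 2 h and 3.46 at 4 h (-2.53 ± 0.34, adjusted p = 5.1e-07).

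**Figure D3:**
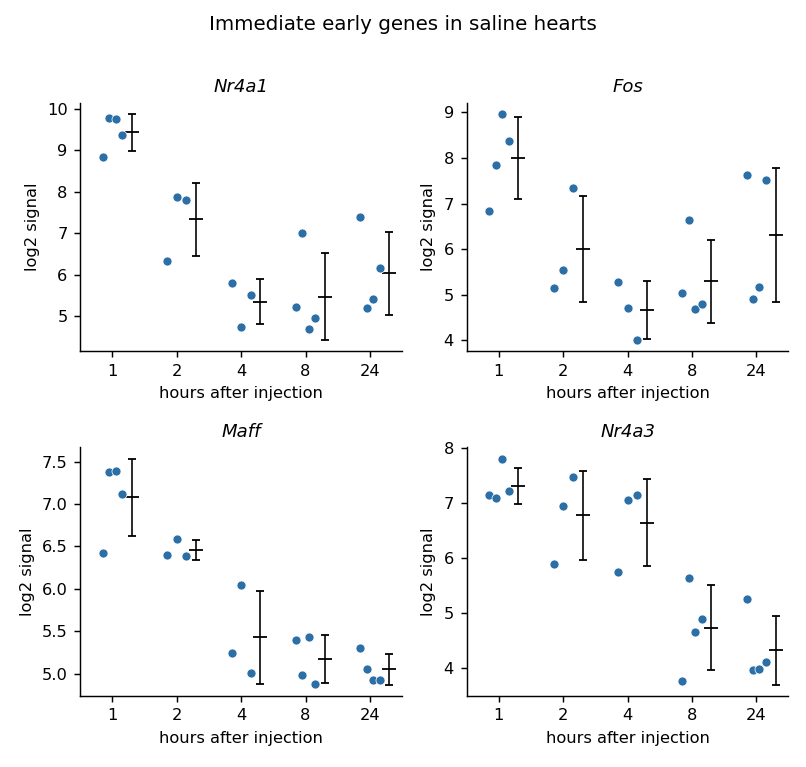
Log2 level of 4 immediate early genes in each saline heart (points) by hours after injection, with the mean and SD of each group (bars). Nr4a1 was at 8.83 to 9.78 at 1 h and at 4.75 to 5.81 at 4 h; Nr4a3 stayed between 5.74 and 7.49 at 2 and 4 h and was at 5.63 or lower from 8 h.

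The Maff promoter is printed because it held a full cyclic AMP response element, TGACGTCA (in capitals, a palindrome), 29 bases before 1 of its 3 listed start sites; 3 of 22 list members with a promoter in the table held one, against 1.55% of all 32851 windows. Members were again counted by gene and the background by window, so these shares are not on an equal footing. The Maff window is chr15:79347270-79347519 on the plus strand of GRCm38.p6.
Maff: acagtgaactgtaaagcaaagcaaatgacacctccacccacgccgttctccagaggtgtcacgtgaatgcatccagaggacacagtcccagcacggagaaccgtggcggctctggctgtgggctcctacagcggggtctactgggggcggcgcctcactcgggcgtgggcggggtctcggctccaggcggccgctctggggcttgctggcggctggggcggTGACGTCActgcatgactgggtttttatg

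Clock genes changed in both directions. Of 12 tested core clock genes, 7 differed over time, and of 11 tested clock outputs, 5, the latter near the 38.3% of all probe sets. Core clock genes had 2, 2, 3 and 3 lower calls against 1 h in the 4 later groups, beside 8.49%, 2.67%, 4.96% and 5.27% of all, and 1 higher call, at 8 h. Their 2 calls at 2 h are near the 18.2% of all called then. The outputs had 2 higher and 1 lower at 8 h and 1 higher and 2 lower at 24 h, and none at 2 or 4 h. With replicate number as a block in limma, Dbp was also called higher at 2, 4 and 24 h (adjusted p = 0.0074, 0.0258 and 0.0218). Without replicate 3 of 8 h, 4 core clock genes differed over time.

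Dbp, the PAR-bZIP output directly driven by BMAL1, read 5.84, 4.45, 5.95 and 6.12 at 1 h, 8.81, 5.61 and 6.84 at 2 h, 7.95, 5.38 and 7.95 at 4 h, 8.80, 7.36, 9.15 and 8.71 at 8 h, and 7.36, 6.0, 7.16 and 7.36 at 24 h. The hearts of 8 h all lay above those of 1 h (2.91 ± 0.53, adjusted p = 0.00023). At 24 h the level was between these, at a mean of 6.97 ± 0.65 (SD, n = 4); the difference from 8 h, -1.54 ± 0.53, passed (adjusted p = 0.0447) but was lost without any 1 of the 4 arrays of 24 h or without replicate 1, 3 or 4 of 8 h (adjusted p up to 0.174, without replicate 2 of 24 h). Arntl, the activator, went the other way. It read 6.65, 6.98, 6.27 and 6.26 at 1 h, 4.27, 6.64 and 6.08 at 2 h, 4.76, 6.97 and 5.34 at 4 h, 4.14, 6.07, 3.21 and 4.86 at 8 h, and 5.69, 6.47, 5.89 and 5.94 at 24 h. All hearts of 8 h were below those of 1 h (-1.97 ± 0.43, adjusted p = 0.0017), and those of 2 and 4 h were spread over more than 2 log2 units. Npas2, the partner that can replace CLOCK, changed by -1.05 ± 0.26 at 8 h (adjusted p = 0.0057), from a low mean of 3.91; its other tested probe set had a change of 0.05. Clock itself had group means of 7.82 to 7.90 (F test adjusted p = 0.97).

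Of the Period genes, which repress BMAL1, Per3 read 5.28, 5.27, 5.34 and 5.24 at 1 h, 6.64, 4.88 and 5.10 at 2 h, 7.10, 4.45 and 6.92 at 4 h, 7.29, 6.02, 6.76 and 6.52 at 8 h, and 5.76, 5.56, 5.75 and 5.75 at 24 h. Its 8 h hearts were all above those of 1 h (1.36 ± 0.38, adjusted p = 0.015, and 0.061 without replicate 1 of 8 h). The 2 other tested probe sets of Per3 had a median change of 0.57 at 8 h. Per1, which also answers to glucocorticoids and cyclic AMP, was instead highest at 1 h: it read 6.48, 7.40, 7.24 and 6.60 at 1 h, 6.12, 5.56 and 5.46 at 2 h, 6.69, 3.99 and 5.34 at 4 h, 6.30, 6.52, 5.89 and 5.53 at 8 h, and 5.57, 4.76, 4.98 and 4.75 at 24 h. The 24 h hearts were all below those of 1 h (-1.91 ± 0.39, adjusted p = 0.00073). Per2 was at a low level, with group means of 2.92 to 3.97, and was lower at 24 h than at 8 h (-1.05 ± 0.33, adjusted p = 0.028; lost without replicate 3 or 4 of 8 h or replicate 1, 2 or 3 of 24 h, up to 0.112). Nr1d2 (REV-ERB beta, a repressor of Arntl) read 9.56 to 9.97 at 1 h, 9.29 to 10.15 at 2 h, 9.17 to 10.31 at 4 h, 9.57 to 10.33 at 8 h and 9.63 to 10.15 at 24 h, and its F test gave an adjusted p of 0.47. Cry1 and Cry2, the cryptochrome repressors, had group means of 5.77 to 6.08 and 4.49 to 5.10, with F test adjusted p of 0.7 and 0.0503. Csnk1d, a kinase of the Period proteins, changed by -0.77 ± 0.11 at 2 h, where its other 3 tested probe sets had a median change of 0.50. Csnk1e, its paralog, changed by -0.44 ± 0.13 at 24 h (adjusted p = 0.02; lost without replicate 2 of 1 h or replicate 1 or 4 of 24 h, up to 0.11).

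Among outputs other than Dbp, Hlf, a relative of Dbp, changed by 0.75 ± 0.25 at 8 h (adjusted p = 0.045; lost without replicate 1, 2 or 3 of 1 h or replicate 3 or 4 of 8 h, up to 0.16), Nfil3, which competes for D-boxes, by -0.97 ± 0.27 (adjusted p = 0.015; lost without replicate 2 or 4 of 1 h or replicate 3 of 8 h, up to 0.105), and Tef, the remaining PAR-bZIP gene, had group means of 7.71 to 8.36 (F test adjusted p = 0.077). Tef was lower at 24 h than at 8 h (-0.65 ± 0.20, adjusted p = 0.025; lost without replicate 1 or 3 of 8 h or replicate 2 or 3 of 24 h, up to 0.099). Usp2, a deubiquitinase under clock control, was lower at 24 h than at 1 h (-0.80 ± 0.15, adjusted p = 0.00024) and than at 8 h (-0.85 ± 0.15). Ciart, a repressor of BMAL1 and CLOCK, had means of 3.18 to 4.40 (F test adjusted p = 0.098).

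**Figure D4:**
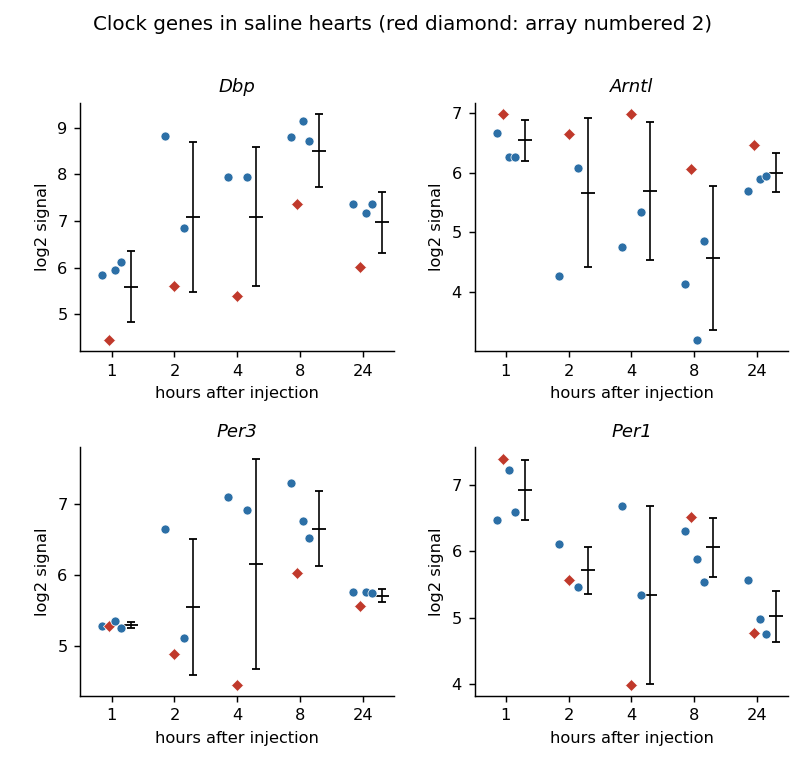
Log2 level of 4 clock genes in each saline heart (points; red diamonds mark the array numbered 2 in each group) by hours after injection, with the mean and SD of each group (bars). Dbp and Per3 were highest at 8 h, Arntl lowest at 8 h and Per1 highest at 1 h; the array numbered 2 was lowest for Dbp in each group.

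The Per3 and Per1 promoters are shown for the elements named above. Per3 held a pair of D-boxes, TTATGTAA, 205 and 158 bases before its start (chr4:151044666-151044915, minus strand, printed in its own direction). Of the 10 core clock genes with a promoter in the table, 1 held this D-box, against 0.819% of all windows. Per1 held an E-box, CACGTG, 166 bases before 1 of 2 listed start sites (chr11:69098699-69098948, plus strand). E-boxes were in 2 of the 10 core clock promoters and 3 of 9 output promoters, in 6 of 22 of the immediate early and 5 of 16 of the glucocorticoid promoters, and in 6.02% of all windows. List shares by gene and shares of all windows are not on an equal footing, since a gene can have several windows. Both strands were searched. The capitals mark the D-boxes in Per3 and the E-box in Per1.
Per3: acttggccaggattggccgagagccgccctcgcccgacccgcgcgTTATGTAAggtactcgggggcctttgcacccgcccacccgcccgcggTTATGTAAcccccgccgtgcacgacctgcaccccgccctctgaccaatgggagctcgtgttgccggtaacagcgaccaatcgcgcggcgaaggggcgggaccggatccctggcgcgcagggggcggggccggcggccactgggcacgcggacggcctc
Per1: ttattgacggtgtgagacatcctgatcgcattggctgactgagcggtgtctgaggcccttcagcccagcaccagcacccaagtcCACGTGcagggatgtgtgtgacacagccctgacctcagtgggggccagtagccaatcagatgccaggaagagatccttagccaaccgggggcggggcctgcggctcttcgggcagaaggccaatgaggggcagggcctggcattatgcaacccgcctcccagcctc

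Genes of insulin and FOXO signalling were mostly highest at 1 h (11 of 13 tested). Of these 13, 11 differed over time, beside 38.3% of all probe sets. At 2 h 8 were lower and 1 higher, and at 4 h 3 were lower. At 8 h 9 were lower and 1 higher, and at 24 h 4 were lower. Of all probe sets, 8.49%, 2.67%, 4.96% and 5.27% were lower at these times. At 2 and 8 h, 9.67% and 3.98% of all were higher. Sesn1, a FOXO and p53 target that restrains mTORC1, went from a mean of 10.83 at 1 h to 10.09 at both 8 and 24 h (-0.74 ± 0.10 at 24 h, adjusted p = 4.9e-07). Pik3r1, the regulatory subunit of PI3 kinase, changed by -0.63 ± 0.11 at 24 h (adjusted p = 8.3e-05). Of 21 fatty acid oxidation genes, 13 differed over time, in both directions, beside 38.3% of all probe sets. Pdk4, the kinase that turns the heart from glucose to fat, read 10.56, 11.83, 11.50 and 9.98 at 1 h, 11.07, 10.75 and 10.75 at 2 h, 10.24, 10.75 and 9.47 at 4 h, 9.66, 8.47, 9.26 and 9.59 at 8 h, and 9.41, 9.39, 9.24 and 9.37 at 24 h. The hearts of 8 and 24 h lay below those of 1 h, by -1.72 ± 0.33 (adjusted p = 0.0005) and -1.62 ± 0.33 (adjusted p = 0.00079). Fasn, the fatty acid synthase, had means of 5.30 at 1 h and 6.49 ± 1.14 (SD, n = 4) at 24 h (F test adjusted p = 0.42), and 2 of the 10 tested synthesis genes differed over time.

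Cardiac channel and clock-linked cardiac genes were called in both directions. Beside channels and Gja1, the list holds Atp2a2, Slc8a1, Tcap and Klf15, and Klf15 is a glucocorticoid list member too. Of 13 tested, 10 differed over time, beside 38.3% of all probe sets. At any one time against 1 h, 1 to 4 were lower and 0 to 2 higher. Of all probe sets, 2.67% to 8.49% were lower and 0.769% to 9.67% higher. Kcna5, an atrial and ventricular potassium channel, read 8.84, 8.00, 6.64 and 8.79 at 1 h, 6.94, 5.75 and 5.34 at 2 h, 7.88, 6.44 and 6.74 at 4 h, 6.77, 7.45, 7.02 and 7.60 at 8 h, and 6.71, 6.52, 4.79 and 6.92 at 24 h. Its groups overlapped; the change at 2 h was -2.05 ± 0.57 (adjusted p = 0.0071; 0.067 without replicate 3 of 2 h). Gja1, the gap junction protein connexin 43, was higher at 24 h (0.44 ± 0.11, adjusted p = 0.0042). Slc8a1, the sodium-calcium exchanger, changed by -1.87 ± 0.46 at 2 h, where its other tested probe set changed by 0.27.

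Of 14 tested heat shock and cold-inducible genes, 6 differed over time, a share near the 38.3% of all probe sets. Beside chaperones and co-chaperones, the list holds the cold-inducible genes Cirbp and Rbm3. At 24 h, 5 of the 14 were lower than at 1 h, beside 5.27% of all (median of the list -0.31). That count was 2 without replicate 3 or 4 of 1 h or replicate 2 of 24 h, and 3 without replicate 1, 3 or 4 of 24 h. Bag3, a co-chaperone of muscle protein quality control, had means of 9.40 at 1 h, 10.03 at 2 h and 8.85 at 24 h, a change of 0.62 ± 0.13 at 2 h (adjusted p = 0.00024) and -0.55 ± 0.12 at 24 h (adjusted p = 0.0011). Dnajb1, an HSP40, changed by -1.31 ± 0.29 at 4 h (adjusted p = 0.0028), and Dnaja1 by -0.83 ± 0.20 at 24 h. Of the stress genes of the endoplasmic reticulum, 9 of 16 differed over time; Herpud1, a membrane protein of its degradation pathway, changed by -1.08 ± 0.18 at 24 h (adjusted p = 4.1e-05). Of 11 genes of the integrated stress response, 5 differed over time, also near the share of all probe sets. Chac1, a glutathione-degrading enzyme of that response, had means of 6.10 at 1 h and 4.30 to 4.60 at all later times (-1.56 ± 0.28 at 2 h, adjusted p = 3.6e-05).

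Proliferation and matrix transcripts mostly had their highest mean at 2 h and their lowest at 24 h. Of 19 tested cell cycle genes, the mean was highest at 2 h for 18 and lowest at 24 h for 15. Of all 26773 probe sets it was highest at 2 h for 7823 and lowest at 24 h for 6253. Of the 19, 6 differed over time, a share below the 38.3% of all probe sets. Against 1 h, 1 was higher at 2 h, beside 9.67% of all, and 2 were lower at 24 h, beside 5.27%. No cell cycle gene was called lower at 24 h without replicate 1, 2 or 3 of 1 h or replicate 2 of 24 h, and 1 was without replicate 1 or 3 of 24 h. Cdk1, the mitotic kinase, read 5.23, 5.13, 5.05 and 3.97 at 1 h, 5.58, 4.92 and 6.55 at 2 h, 4.47, 4.19 and 5.68 at 4 h, 4.03, 4.08, 4.82 and 5.32 at 8 h, and 3.19, 3.11, 3.20 and 3.62 at 24 h. All hearts of 24 h were below all others (-1.57 ± 0.45 against 1 h, adjusted p = 0.018; up to 0.066 without replicate 1, 2 or 3 of 1 h or replicate 2 of 24 h). Cdc20, which activates the anaphase complex, changed by -1.16 ± 0.36 (adjusted p = 0.034; lost without any of replicates 1 to 3 of 1 h or 1 to 3 of 24 h, up to 0.093). Of 15 tested matrix genes, 10 differed over time, beside 38.3% of all probe sets. At 2 h 5 were higher and at 24 h 6 were lower (medians 0.44 and -0.43), beside 9.67% and 5.27% of all. Without replicate 3 of 2 h, 1 was higher at 2 h. At 24 h, 3 were lower without replicate 3 of 1 h and 2 without replicate 1 of 24 h. Col3a1, a fibrillar collagen, had means of 12.27, 12.70 and 11.89 at 1, 2 and 24 h, Col4a1, a basement membrane collagen, 10.33, 10.82 and 9.89, and Mmp2, a matrix protease, 8.95, 9.50 and 8.40. Their changes at 2 h were 0.44 ± 0.12, 0.49 ± 0.13 and 0.55 ± 0.16, and all 3 calls were lost without replicate 3 of 2 h (adjusted p = 0.0968, 0.156 and 0.151). Tfrc, the transferrin receptor and a listed clock output, read 9.86, 8.98, 9.68 and 10.11 at 1 h, 9.53, 10.38 and 10.40 at 2 h, 10.41, 9.61 and 10.40 at 4 h, 9.76, 9.23, 10.07 and 10.22 at 8 h, and 10.97, 10.93, 10.87 and 10.97 at 24 h. The 24 h hearts lay above all others (1.28 ± 0.36 against 1 h, adjusted p = 0.015; 0.097 without replicate 2 of 1 h).

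Platelet transcripts were higher at 2 h, with the 18S difference in the same 3 hearts. All 5 tested platelet markers were higher at 2 h than at 1 h (median 1.64), beside 9.67% of all probe sets. The mean over these markers was 4.95 and 6.70 at 1 and 2 h after saline, and 5.26 and 5.19 after KCN. The 18S control averaged 11.55 in the saline hearts of 2 h, 12.89 in the KCN and 12.98 in the air hearts of 2 h. The difference in change from KCN at 2 h was not tested. Ppbp, a platelet chemokine, read 5.92, 5.68, 5.98 and 6.21 at 1 h, 9.19, 7.68 and 9.32 at 2 h, 5.92, 6.62 and 4.72 at 4 h, 6.18, 5.68, 6.05 and 5.27 at 8 h, and 5.79, 8.07, 5.53 and 6.10 at 24 h. All 3 hearts of 2 h were above those of 1 h (2.79 ± 0.56, adjusted p = 0.00023), and 1 heart of 24 h also read 8.07. Gp9, part of the platelet receptor that binds von Willebrand factor, read 3.91, 4.00, 4.11 and 3.51 at 1 h, 7.06, 5.21 and 6.32 at 2 h, 4.66, 3.80 and 3.80 at 4 h, 3.74, 3.64, 4.26 and 3.89 at 8 h, and 3.52, 4.50, 3.88 and 4.24 at 24 h. The hearts of 2 h lay above all others (2.32 ± 0.38, adjusted p = 1.1e-05). Outside the list, Clec1b, a platelet receptor, changed by 2.41 ± 0.48 and Gp1bb, another subunit of the Gp9 complex, by 2.24 ± 0.44. Pf4 changed by 1.13 ± 0.20 and Treml1 by 1.64 ± 0.23. Itga2b changed by 0.88 ± 0.24 and was not called without replicate 1 or replicate 3 of 2 h (adjusted p up to 0.11). Among the other marker lists at 2 h, 2 endothelial, 2 fibroblast and 2 macrophage markers and 1 ventricular marker were higher, and 1 atrial and 1 smooth muscle marker were lower; Pecam1, an endothelial adhesion molecule, had means of 6.74 at 1 h, 7.78 at 2 h and 6.38 at 24 h (1.04 ± 0.26 at 2 h, adjusted p = 0.0025). No erythroid, thymocyte, adipocyte, skeletal muscle, Schwann cell or mesothelial marker differed over time.

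**Figure D5:**
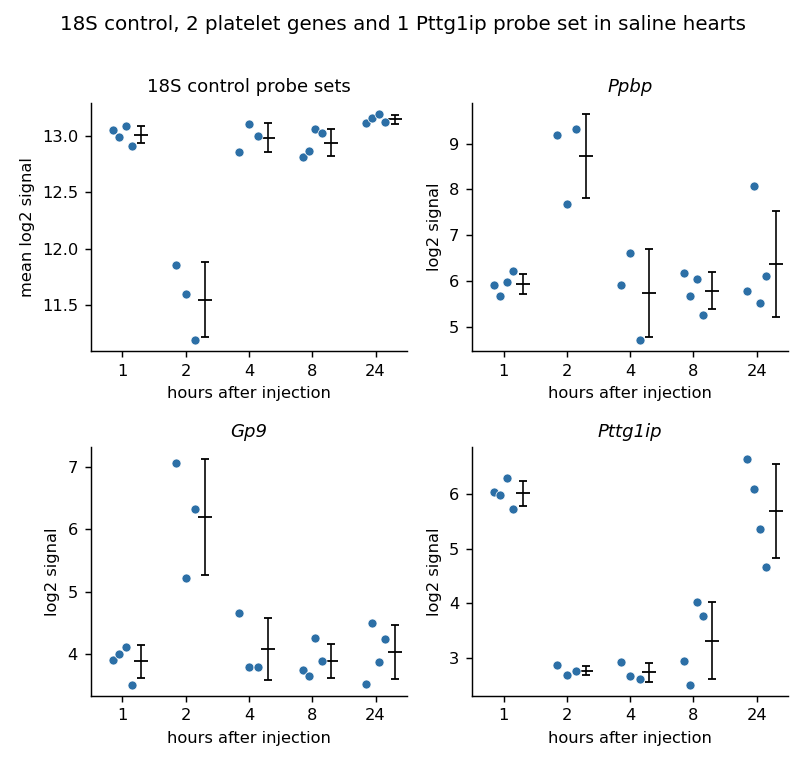
Log2 level of the 18S control, 2 platelet genes and 1 Pttg1ip probe set in each saline heart (points) by hours after injection, with the mean and SD of each group (bars). In the hearts of 2 h 18S was at 11.19 to 11.85 and Gp9 at 5.21 to 7.06; the Pttg1ip probe set was low from 2 to 8 h and at 4.67 to 6.65 at 24 h.

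The lowest F test p-values belonged to probe sets that set the hearts of 1 and 24 h apart from those of 2 to 8 h. Of the 20 named probe sets with the lowest p, 17 were highest at 1 and 24 h. For 19 of the 20, other probe sets of the same gene were tested, and for 15 of these the range of its group means was over 3 times the median range of the others. A probe set of Pttg1ip, which codes for a membrane glycoprotein that binds securin, read 6.04, 5.98, 6.30 and 5.73 at 1 h, 2.86, 2.69 and 2.75 at 2 h, 2.93, 2.67 and 2.61 at 4 h, 2.94, 2.51, 4.03 and 3.76 at 8 h, and 6.65, 6.08, 5.37 and 4.67 at 24 h. Its change at 2 h was -3.25 ± 0.28 (adjusted p = 1.7e-12), while the other 2 probe sets of the gene had a median change of -0.13. A probe set of Ndufab1, the acyl carrier protein of complex I, had means of 9.30, 6.32, 6.59, 7.46 and 9.25, while the brightest probe set of the same gene had 12.39 to 12.44. Rab2a, a trafficking GTPase, had 5.61, 2.62, 2.77, 3.99 and 6.11, and the median change at 2 h of the 5 others was -0.20. Tmed7, Mfn1 and a second Hspb1 probe set had the same order. At the Pttg1ip probe set the 5 KCN groups had means of 2.93 to 3.64, and the 4 air groups, on their own scale, of 3.13 to 3.87.

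The air course shows which of these changes recurred in mice that received no injection. The saline and air courses share no arrays, and since the injected and inhaled sets stand on different scales, only changes from 1 h were compared. Of the probe sets called at 4 h, 250 were called in both courses in the same direction (223 lower, 27 higher). They made up 27.1% of the saline and 10.6% of the air calls. Of all probe sets, 8.81% were called in air and 3.44% in saline hearts at 4 h. At 24 h the shared calls were 951 (566 lower, 385 higher), or 39.8% of the saline and 24.1% of the air calls. Air hearts had 14.7% and saline hearts 8.92% of all probe sets called then. At 2 h the shared calls were 45, or 0.926% of the saline and 36.6% of the air calls. Air calls then numbered 123 (0.459% of all tested), against 4861 saline calls (18.2%).

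In air hearts, 6, 13 and 17 of the 19 glucocorticoid genes were lower at 2, 4 and 24 h than at 1 h. None was higher. Of all probe sets, 0.34%, 4.56% and 5.94% were lower and 0.12%, 4.25% and 8.78% higher at these times. At 24 h Fam107a changed by -3.70 in air hearts and -3.69 in saline hearts, Fkbp5 by -2.86 and -2.42, Cdkn1a by -2.90 and -2.67, and Zbtb16 by -2.72 and -2.34. For none of these 4 genes did the difference in change between the courses pass; for Fam107a it was 0.01 ± 0.48 (adjusted p = 0.998) and for Fkbp5 0.44 ± 0.40 (adjusted p = 0.696). No gene of the list differed between the courses at 2, 4 or 24 h. Immediate early genes had 2, 6 and 7 lower calls in air hearts at these times, and 1 higher call at 24 h. Nr4a1 changed by -2.23 ± 0.43 in air and -4.08 ± 0.46 in saline hearts at 4 h, and the difference of -1.85 ± 0.63 did not pass (adjusted p = 0.119). Dbp changed by 2.17 ± 0.53 at 4 h and 1.74 ± 0.53 at 24 h in air hearts. In saline hearts it changed by 1.503 at 4 h and 1.379 at 24 h. Without the replicate block, neither saline change passed in limma (adjusted p = 0.147 and 0.0954). No tested clock output differed in change between the courses at 4 or 24 h. At 8 h, a time not analysed for air, Dbp changed by 2.91 ± 0.53 in saline hearts.

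The courses differed most at 2 h. The change from 1 to 2 h differed between saline and air at 2397 probe sets (8.95%; higher in saline for 4.67% and lower for 4.29%), from 1 to 4 h at 340 (1.27%) and from 1 to 24 h at 163 (0.609%). Saline changes were the higher ones in 52.1%, 33.2% and 18.4% of these calls; median centring gave 62.4% at 2 h and quantile normalization 48.4% at 4 h. With a saline array left out, the 4 h count was 135, 150, 159, 96 and 536 without replicates 1 and 3 of 1 h and replicates 1, 2 and 3 of 4 h. The 24 h count was 87, 80, 100, 74 and 83 without replicates 1, 3 and 4 of 1 h and replicates 1 and 2 of 24 h. All 5 platelet markers were among the 2 h differences (median 1.90): Ppbp by 3.38 ± 0.76 (adjusted p = 0.0025), Gp9 by 2.72 ± 0.52 and Treml1 by 1.90 ± 0.31. Of the matrix genes, 4 differed, among them Col3a1 by 0.76 ± 0.17 (adjusted p = 0.0018) and Mmp2 by 0.85 ± 0.22. Bag3 differed by 0.99 ± 0.17 (adjusted p = 0.00011). Ddx6, an RNA helicase of mRNA storage, had saline means of 9.07 at 1 h and 6.05 at 2 h and air means of 7.54 and 8.05, a difference in change of -3.52 ± 0.44 (adjusted p = 3.5e-07). Btg2, an antiproliferative early gene, differed by -2.61 ± 0.74 (adjusted p = 0.017), with a saline change of -2.48 ± 0.54.

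At 8 h the KCN course was the only other one, and shared direction with saline at 784 probe sets, which was 32.8% of the saline and 23.4% of the KCN calls (3357 in all, 12.5% of those tested; 6.15% higher and 6.39% lower). The change from 1 to 8 h differed between saline and KCN at 236 probe sets (0.881%), and at 118 without saline replicate 2 of 1 h. Saline was the higher in 38.1% of the 236 and, after median centring, in 48.4% of the calls. Of the 19 glucocorticoid genes, 12 were lower at 8 h in saline and 13 in KCN hearts, and none differed in change. Dbp changed by 2.91 ± 0.53 and 2.34 ± 0.53, Arntl by -1.97 ± 0.43 and -1.90 ± 0.43, and Per3 by 1.36 ± 0.38 and 1.37 ± 0.38 in saline and KCN hearts. Immediate early genes did differ: 23 of 28 were lower at 8 h than at 1 h after KCN and 10 after saline, and the change of 9 was higher (less negative) in saline, against 0.336% of all probe sets. Atf3, a stress-induced transcription factor, had means of 7.23 at 1 h and 5.13 at 8 h after saline and of 10.53 and 4.76 after KCN, a difference in change of 3.68 ± 0.57 (adjusted p = 0.00012). Gadd45b, a growth arrest gene, differed by 2.97 ± 0.38 (adjusted p = 2.7e-06), Ccn1, a matricellular protein, by 2.70 ± 0.44 and Gadd45g by 2.07 ± 0.35. Egr1, a zinc-finger early gene, differed by 2.19 ± 0.57 (adjusted p = 0.045). Each of these had a higher mean at 1 h after KCN than after saline. At 8 h the means of the injected groups lay closer together, as for Gadd45b (6.37 after saline, 5.80 after KCN) and Egr1 (7.31 and 7.58).

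For the remaining lists, the F test, which called 38.3% of all probe sets, called 18 of 38 respiratory chain genes, 14 of 23 proteasome genes, 6 of 15 glycolytic genes, 5 of 12 hypoxia genes, 5 of 12 ribosome biogenesis genes, 5 of 10 NRF2 targets, 4 of 9 cardiac stress genes, 3 of 11 adrenergic signalling genes, 3 of 8 cholesterol synthesis genes, 1 of 16 inflammation genes and 1 of 8 interferon-response genes. Among cell type lists it called 4 of 7 macrophage, 3 endothelial, 2 fibroblast, 1 smooth muscle, 1 of 4 neutrophil and 1 lymphocyte marker, and no ventricular, atrial or airway marker. For the NRF2 targets, 3 were higher and 1 lower at 2 h, beside 9.67% and 8.49% of all probe sets. The group mean was highest at 2 h for 7 of 10 of them, and for 7823 of all 26773 probe sets. These hearts of 2 h are the 3 with the low 18S.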

How the data were processed

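Total RNA from hearts was isolated with RNeasy Plus Mini kits, checked on a Bioanalyzer and a NanoDrop, and 100 ng were labelled with the 3' IVT PLUS kit, per the labels' protocols. The authors deposited log2 levels for 45141 probe sets on 69 arrays (1.83 to 13.94); the submitters' processing notes name MAS5, with no version, and how arrays were scaled is not given in the sources used here. The medians of the 95th percentile of the injected and the inhaled arrays were 9.24 and 9.52, so levels were compared within a route only. No depth applies to arrays, and their number limits the precision. The replicates are titled as biological, and nothing else says how they relate.

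Of the probe sets, 28898 carried 1 gene symbol, 551 several and 15588 none in the platform annotation; 104 were controls and left out. Probe sets with at least 1 group mean above 3.23, the median of all group means, were tested (26773; 19929 with a symbol, for 12436 genes). limma 3.58.1 in R 4.3.3 fitted the 18 group means of all 69 arrays, cyanide groups included, with an intensity trend in the variance (residual degrees of freedom 51, prior 5.53). Benjamini-Hochberg adjustment ran over all tested probe sets per comparison, and a call is an adjusted p below 0.05. Errors of changes are SE. A difference in change is an interaction term of the same fit. The scripts were tested on simulated data. Python 3.11.15, pandas 2.3.3, numpy 2.4.6, scipy 1.17.1 and matplotlib 3.10.9 served for the rest.

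The members and gene lists were chosen with earlier results of these data known. A list gene is its probe set of highest mean over the saline arrays. Named genes are, per comparison, the 10 largest rises and falls among calls that carry 1 symbol and whose groups do not overlap (for the F test, the 20 of lowest p), all clock and clock output members, and up to 4 members of every other list by F test p; only part of these are described. Genes with no symbol-bearing probe set, such as Nr1d1 and Hspa1a, are not analysed here. Promoters are the 250 bases before RefSeq start sites on GRCm38.p6; the E-box CACGTG, the D-box TTATGTAA, the cyclic AMP response element TGACGTCA and the GRE were searched on both strands, and CACGTG and TGACGTCA shared bases in 2 windows and no other pair in any.

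Alternatives were quantile normalization, median centring, no trend, no filter or a stricter one (a group mean above 4), 1 probe set per gene, at least 1.5-fold, injected or saline arrays only, the actin ratio as a covariate, replicate number as a block, and each saline array left out. The F test without the 2 h arrays, the fits without 3 arrays of Scgb1a1 above 5 and the alternatives for list counts were added after seeing the data.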

Additional observations from a re-analysis of the deposited data

Results flagged for a closer look

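In 93 groups of 4 saline hearts, each of 1 named gene, 7 held an array set apart from its group by Dixon's test at the 95% level. That level alone would flag about 1 in 20, and the cause was not tested. These were Dbp in 1 heart of 1 h (4.45, below the others) and 1 of 24 h (6.0, below), Per3 at 24 h (5.56, below), Nr4a3 at 24 h (5.25, above), Cdk1 at 1 h (3.97, below) and at 24 h (3.62, above), and the airway gene Scgb1a1 at 24 h (9.51, above). The Dbp and Per3 readings come from the arrays numbered 2.

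Of the genes described in the text, the change from 1 to 8 h differed between saline and KCN hearts by the interaction term of limma for 11 entries. The difference (saline minus KCN, log2) was 3.68 for Atf3, 2.97 for Gadd45b, 2.70 for Ccn1, 2.19 for Egr1 and 2.07 for Gadd45g. It was -0.80 for Pik3r1, which changed by -0.48 in saline and 0.32 in KCN hearts. For the single probe sets that were high in saline hearts of 1 h it was -2.76 for Pttg1ip, -2.16 for Ndufab1, -1.86 for Hspb1, -1.62 for Rab2a and -1.57 for Mfn1.

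The change from 1 to 2 h differed between saline and air hearts for 22 entries of the same genes. Differences above 0 were 3.38 for Ppbp, 2.96 for Clec1b, 2.72 for Gp9, 2.66 for Gp1bb, 1.90 for Treml1, 1.45 for Pf4 and 1.14 for Itga2b among platelet genes, 0.76 for Col3a1, 0.64 for Col4a1 and 0.85 for Mmp2 among matrix genes, 0.99 for Bag3 and 0.70 for Usp2. Those below 0 were -3.52 for Ddx6, -2.61 for Btg2, -2.26 for Slc8a1 and -0.55 for Csnk1d, and for the single probe sets -2.55 for Rab2a, -2.54 for Pttg1ip, -2.27 for Ndufab1, -2.26 for Hspb1, -1.53 for Tmed7 and -1.39 for Mfn1. From 1 to 4 h the single probe sets differed by -2.56 for Pttg1ip, -2.06 for Rab2a, -1.91 for Tmed7, -1.71 for Ndufab1 and -1.52 for Hspb1.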

How the results depend on the processing

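With 1 probe set per gene the counts of calls were 5171 for saline hearts over time, 2281, 387, 1300 and 1489 at 2, 4, 8 and 24 h against 1 h, 1758 between 8 and 24 h, 1096, 77 and 12 for the difference from air at 2, 4 and 24 h, and 130 for that from KCN at 8 h, with fewer probe sets tested by construction. At least 1.5-fold left 2361, 500, 885 and 928 at the 4 times and 1288 between 8 and 24 h. Fitted on saline arrays only, 545, 1468 and 1566 were called at 4, 8 and 24 h, and 3 matrix genes lower at 24 h; the actin ratio as a covariate gave 1136 at 8 h and 2219 between 8 and 24 h. The F test without the 2 h arrays gave 5995, and without the arrays that hold airway transcripts 2243 were called between 8 and 24 h and 1 cell cycle gene lower at 24 h. Quantile normalization gave 92 for the difference from air at 24 h and 3 lower genes of the heat shock and cold-inducible list at 24 h. It gave an actin ratio at 4 h of -0.028 relative to 1 h in place of 0.019 (exact permutation p = 0.943 for the latter). The difference from KCN at 8 h was called at 147 without a filter and 100 in injected arrays only. Apart from fewer samples or probe sets, the cause was not tested.

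Leaving out 1 saline array gave 9052 to 10484 calls for saline hearts over time, 3482 to 4915, 460 to 978, 1170 to 2500 and 1336 to 2483 at 2, 4, 8 and 24 h, 2213 to 3633 between 8 and 24 h, 1683 to 2459, 96 to 536 and 74 to 190 for the difference from air, and 118 to 248 for that from KCN. The lower glucocorticoid genes were 5 to 7, 7 to 12, 9 to 12 and 16 at the 4 times (17 to 18 over time). The lower immediate early genes were 6 to 8, 6 to 11, 9 to 10 and 7 to 11 (12 to 15 over time). Core clock genes over time were 4 to 8, clock outputs 4 to 7 and lower insulin genes at 8 h 7 to 10. Lower genes of the heat shock and cold-inducible list at 24 h were 2 to 5. Higher matrix genes at 2 h were 1 to 7, lower ones at 24 h 2 to 7, lower cell cycle genes 0 to 3 and higher platelet genes 4 to 5. Of 211 called results for named genes, 151 kept their call whichever array was left out, and none changed direction in these fits, with the block or in those that follow; 3 lost it under quantile normalization, 3 under median centring, 9 in injected arrays only, 20 in saline arrays only and 22 with the actin covariate, and 21 of 133 without the airway arrays.

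Over the probe sets as a whole, replicate numbers do not pair the arrays. Of 33 same-numbered pairs of saline groups, deviations correlated at -0.154 to 0.198, 5 above 0.1, and 6 of 18 arrays matched their own number best. Clock genes in the arrays numbered 2 did stand apart, as given below. With the replicate block the counts were 10211 for saline hearts over time, 4786, 987, 2452 and 2406 at the 4 times, 3613 between 8 and 24 h, 2381, 299 and 188 against air and 209 against KCN, and 1 named result lost its call. For Dbp the block gave higher calls than at 1 h at 2 h (adjusted p = 0.0074, against 0.0602 without it), at 4 h (0.0258, against 0.147) and at 24 h (0.0218, against 0.0954).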

Other observations

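Clock genes in the arrays numbered 2 stood to one side of their groups; these genes were singled out after their values were seen. The array numbered 2 had the lowest Dbp level in 5 of 5 saline and 5 of 5 KCN groups, and the highest Arntl level in 5 saline and 4 KCN groups. Nr1d2 was lowest in 5 and 4, Per3 in 4 and 3 and Per2 in 4 and 2 of these groups, and Cry1 was highest in 5 and 2 and Npas2 in 4 and 3. Of 26773 probe sets, 120 (0.448%) had the array numbered 2 lowest, or highest, in all 5 saline groups, and 2 (0.00747%) had it so in all 10 injected groups: those were Dbp and a second probe set of Nr1d2. At 2, 4 and 8 h Dbp read 5.61, 5.38 and 7.36 in the arrays numbered 2 and 6.84 to 9.15 in the others. The labels do not say what a replicate number marks.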
